A study of Homo sapiens with 6 samples.

Results

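The cluster of miR-221 and miR-222 is a pair of neighbouring microRNA (miR) hairpins on the X chromosome, each of which gives a mature miR from its 5′ side (the 5p arm) and another from its 3′ side (the 3p arm). Its 4 arms, hsa-miR-221-3p, hsa-miR-221-5p, hsa-miR-222-3p and hsa-miR-222-5p (written without hsa below), were taken by name from a count table of 2588 mature miRs. All 4 passed the filter on low counts and were among the 360 miRs tested. The study sequenced small RNA of HEK293T, an established human embryonic kidney cell line that carries the SV40 large T antigen, to ask whether depletion of the ribosomal protein RPL24 changes miR levels. RPL24 KD cells received siPOOLs (pools of siRNAs against 1 transcript) that target RPL24, and NC cells received non-targeting siPOOLs, both at 50 nM. Harvest was 72 h after siPOOL transfection, as the sample titles give it, while the time field of the labels writes day 72. The labels also describe, for both groups alike, a plasmid with miR-608 given 48 h after the siPOOLs. The study, however, calls the sequencing a separate knock-down experiment and reports that miR-608 was not detected in it. Whether the sequenced cells received the plasmid cannot be told here. There were 3 libraries per group, all from the same cell line, and no label says that they came from separate cultures, so that p-values measure the spread between these samples, which may be technical. In each group the numbers of libraries 1 and 2 match between labels and count table, and the other library, which is number 3 in the labels and number 4 in the table, is called unnumbered.

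A miR hairpin is cut out of a long primary transcript by the microprocessor (DROSHA with DGCR8) and cut again by DICER1, after which one strand of the duplex, the guide, is kept by an Argonaute protein and the other, the passenger, is mostly degraded. The guide recognises mRNAs mainly through its seed, bases 2 to 8. MiR-221-3p and miR-222-3p, the guides of their hairpins, are known for repressing CDKN1B (the cell cycle inhibitor p27) and the receptor tyrosine kinase KIT, and are abundant in many tumours and proliferating cells.

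The mature sequences are shown because both guides share their seed. They are those of RefSeq on GRCh38.p14, 5′ to 3′, with the seed in capitals. Among 2370 mature human miRs in that table, 3 of the 4 arms had an entry.
miR-221-3p: aGCUACAUugucugcuggguuuc
miR-222-3p: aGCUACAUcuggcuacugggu
miR-222-5p: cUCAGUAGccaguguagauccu
MiR-221-3p has 23 nt and lies at chrX:45746180-45746202, miR-222-3p has 21 nt and lies at chrX:45747036-45747056, and miR-222-5p has 22 nt and lies at chrX:45747073-45747094, all on the minus strand. The first 8 bases of both guides are identical and the sequences first differ after that point. Aligned over their whole length with gaps allowed, they shared 18 identical bases. No other miR of the table holds the seed GCUACAU, and none but miR-222-5p holds UCAGUAG. The counting rule for reads that fit several miRs is not given in the sources used here.

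The hairpins are shown because both arms of a hairpin are cut from 1 RNA. Capitals mark the arms printed above.
MIR221: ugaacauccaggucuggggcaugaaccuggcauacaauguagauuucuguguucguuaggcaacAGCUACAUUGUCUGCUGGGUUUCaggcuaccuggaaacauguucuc
MIR222: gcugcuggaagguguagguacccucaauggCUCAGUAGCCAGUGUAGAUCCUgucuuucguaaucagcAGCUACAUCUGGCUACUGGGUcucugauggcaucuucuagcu
MIR221 lies at chrX:45746157-45746266 and MIR222 at chrX:45747015-45747124, both on the minus strand, each 110 nt long, with 748 nt between them. In the GENCODE 29 annotation of GRCh38 both are intronic, in intron 1 of the transcript MIR222HG-201 of their host, the non-coding RNA MIR222HG (X, 45745211 to 45770274). MIR221 ends 56 nt and MIR222 ends 914 nt before the next exon of that transcript. Both lie outside the transcript MIR222HG-202. The folds predicted by RNAfold had a minimum free energy of -46.5 kcal/mol with 42 base pairs for MIR221 and -53.8 kcal/mol with 38 base pairs for MIR222. The letters UGUG, a motif of the apical loop that favours processing of some hairpins, were searched on the transcribed strand in the 25 bases before the 3p arm. MIR221 held 1 match and MIR222 held 0, against a match in 158 of 789 hairpins (20.0%).

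The libraries held from 398721 to 611745 counts. Levels are given in CPM, counts per 1000000 of the library size after TMM normalization, which scales libraries so that most miRs do not differ between them. As each read covers a whole mature miR, no scaling by length was needed, but the capture of different miRs by library ligation can be unequal, so levels of different arms compare only approximately. RPL24 mRNA is not measured by small RNA libraries, and its depletion was not checked here. Of the 7 miRs listed as HEK293T markers (from the miR-17-92 and HOX clusters), all were detected, with a summed level, here in CPM of total counts without TMM, of 259589 to 267308 CPM after RPL24 KD and 246257 to 273189.5 CPM in NC. The 9 markers of liver, muscle, blood and neurons summed on the same scale to 245 to 271 CPM after RPL24 KD and 347 to 396 CPM in NC. Of these, miR-206 and miR-223-3p were at 0 in all libraries, and muscle miR-1-3p, at 236 to 262 CPM after RPL24 KD and 318 to 359 CPM in NC, made up most of the sum. The part of this difference in the results was not tested. In bulk libraries, fewer cells of a type and less RNA per cell cannot be told apart.

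No difference between RPL24 KD and NC cells was detected for any arm of the cluster with 3 libraries per group. The guides miR-221-3p and miR-222-3p were among the most abundant miRs of the cells, number 7 and number 8 by mean CPM of the 360 tested. The passenger miR-221-5p was number 62, and the passenger miR-222-5p, number 329, was close to the lower limit of what was tested. None of the 4 was called at an adjusted p under 0.05, and in all 4 the KD and NC libraries overlapped.

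MiR-221-3p was at 29600.0, 31452 and 30600.0 CPM in RPL24 KD libraries 1, 2 and unnumbered, and at 30413, 30258 and 31772 CPM in NC libraries 1, 2 and unnumbered. These values rest on 12104 to 18903 reads per library. The groups overlapped, with RPL24 KD 1 lowest and the unnumbered NC library highest. The mean was 30551 ± 927 CPM (SD, n = 3) after RPL24 KD and 30814 ± 833 CPM (SD, n = 3) in NC. The log2 fold change was -0.01 (standard error 0.0495, 95% interval -0.12 to 0.09, adjusted p = 0.907 in edgeR's quasi-likelihood test with Benjamini-Hochberg adjustment). In percent, the interval runs from -7.89% to 6.71%. Its standard error was number 5 from the smallest of the 360 miRs.

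MiR-222-3p, its seed partner, was at 28276, 31750.1 and 29771 CPM in RPL24 KD libraries 1, 2 and unnumbered, and at 29717, 32452 and 26850.3 CPM in NC libraries 1, 2 and unnumbered. It rested on 11884 to 19082 reads per library. Both the highest and the lowest value were those of NC libraries, so that the RPL24 KD values lay inside the NC range. The means were 29932 ± 1743 CPM (SD, n = 3) after RPL24 KD and 29673 ± 2801 CPM (SD, n = 3) in NC. The log2 fold change was 0.01 (standard error 0.0678, 95% interval -0.13 to 0.16, adjusted p = 0.933, edgeR). In percent, this interval runs from -8.78% to 11.6%.

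MiR-221-5p, the passenger of the MIR221 hairpin, was at 1379, 1604 and 1626 CPM in RPL24 KD libraries 1, 2 and unnumbered, and at 1564, 1779.9 and 1651 CPM in NC libraries 1, 2 and unnumbered. RPL24 KD 1 was the lowest and NC 2 the highest, while the others lay close together. The means were 1536 ± 137 CPM (SD, n = 3) after RPL24 KD and 1665 ± 109 CPM (SD, n = 3) in NC. The log2 fold change of -0.12 was not past the threshold (standard error 0.0863, 95% interval -0.30 to 0.07, adjusted p = 0.469, edgeR).

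MiR-222-5p, the passenger of the MIR222 hairpin, had 9, 19 and 7 reads in RPL24 KD libraries 1, 2 and unnumbered and 17, 11 and 13 reads in NC libraries 1, 2 and unnumbered. In CPM these were 16.5, 31.6 and 17.5 after RPL24 KD and 29.7, 27.5 and 24.6 in NC, where 3 counts, the floor used here, are worth 4.90 to 7.52 CPM. A pair of RPL24 KD libraries lay under all NC libraries and RPL24 KD 2 lay over them. The means were 21.9 ± 8.46 CPM (SD, n = 3) after RPL24 KD and 27.3 ± 2.55 CPM (SD, n = 3) in NC. The log2 fold change was -0.27 (standard error 0.343, 95% interval -1.01 to 0.46, adjusted p = 0.697, edgeR). In percent the interval runs from -50.3% to 37.9%, and changes of that size were not detectable for this arm at this depth.

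**Figure D1:**
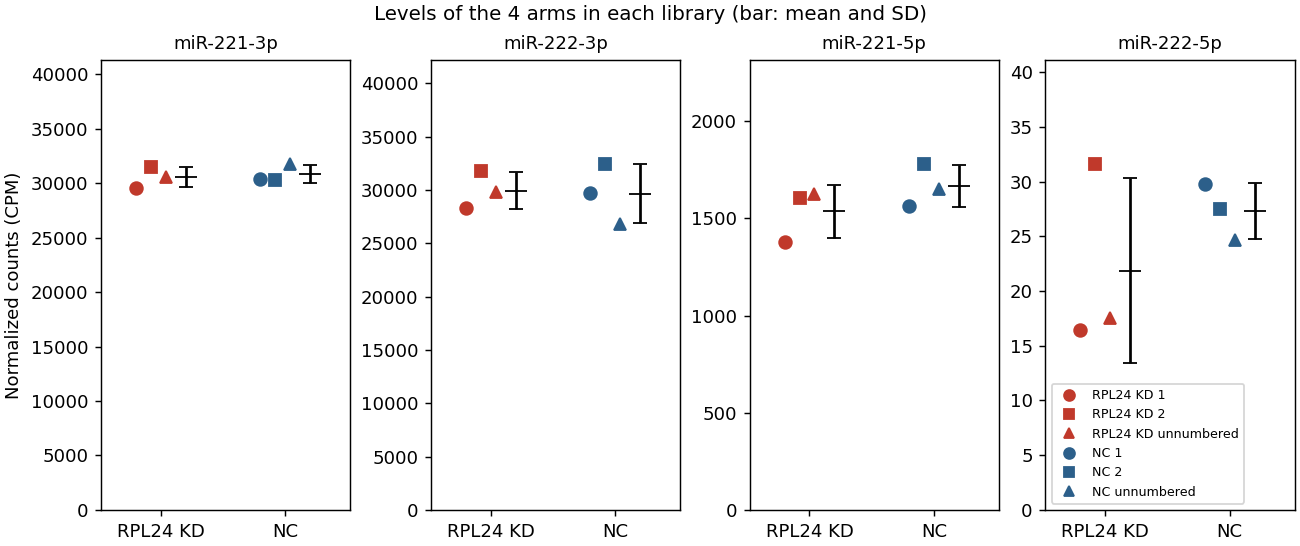
Normalized counts (CPM, linear axes from 0, one panel per arm) of miR-221-3p, miR-222-3p, miR-221-5p and miR-222-5p in the 3 RPL24 KD and 3 NC libraries, with each group's mean and SD as a bar. The groups overlap in all 4 panels, and the NC values of miR-222-3p, 26850.3 to 32452 CPM, enclose those of RPL24 KD.

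Of all 360 miRs, 18 were called (5.00%), 12 higher and 6 lower after RPL24 KD, 85 had an unadjusted p under 0.05, and the groups did not overlap in 99 (27.5%). Of the cluster's 4 arms 0 were called by edgeR, with unadjusted p-values of 0.203 to 0.853, and 0 had groups that did not overlap. DESeq2 gave 3 of them an adjusted p (none to miR-222-5p) and called 0 of these 3. The median log2 fold change was -0.06 over the 4 arms and -0.01 over all 360 miRs. By absolute log2 fold change the guides were among the miRs that differed least, since 5.28% of the miRs tested had a smaller value than miR-221-3p and 5.56% a smaller value than miR-222-3p. For miR-221-5p this share was 34.2% and for miR-222-5p 69.7%. The called miRs had absolute log2 fold changes of 0.26 to 1.18, all outside the intervals of both guides. The intervals of the passengers were wider, from -0.30 to 0.07 for miR-221-5p and from -1.01 to 0.46 for miR-222-5p.

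**Figure D2:**
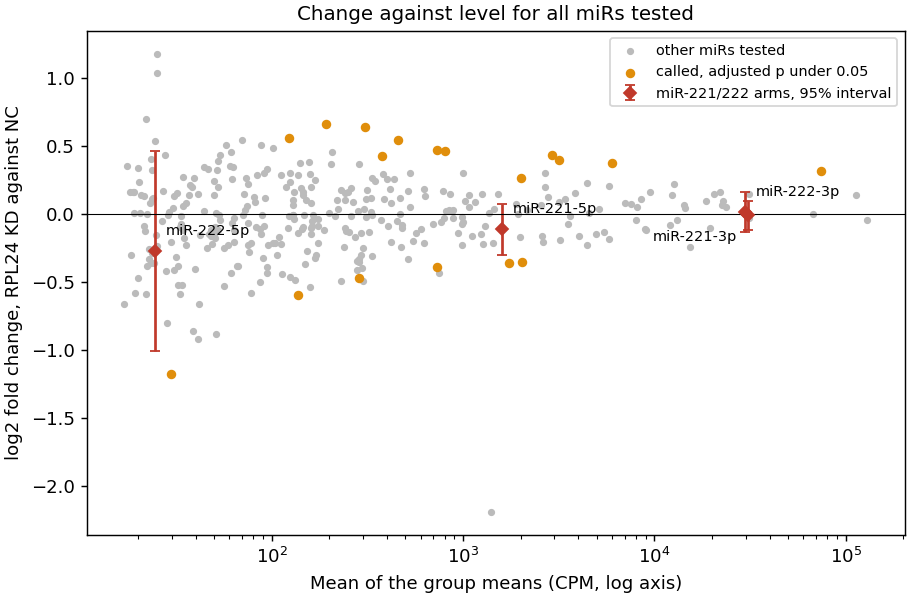
Log2 fold change after RPL24 KD, relative to NC, for each of the 360 miRs tested, against the mean of both group means in CPM (log axis), with the 18 called miRs in orange and the 4 arms of the cluster in red with 95% intervals. The guides sit at the zero line towards the right end of the level axis, with miR-221-3p at -0.01 and miR-222-3p at 0.01, and the interval widens towards the least abundant arm, miR-222-5p.

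Summed over its 4 arms, the cluster took 5.80% to 6.37% of the counts of the RPL24 KD libraries and 6.20% to 6.47% of those of the NC libraries. The sum was 62041 ± 2783 CPM (SD, n = 3) after RPL24 KD and 62179.9 ± 2146 CPM (SD, n = 3) in NC. The log2 difference of -0.0036 had p = 1 in an exact two-sided permutation test, for which 0.1 is the smallest p that 3 libraries against 3 allow.

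The spread of the arms between libraries exceeded counting error for the 3 abundant arms. The coefficient of variation (SD over mean) of miR-221-3p was 3.03% in RPL24 KD and 2.70% in NC, where counting error alone gives 0.801%. That of miR-222-3p was 5.82% in RPL24 KD and 9.44% in NC against 0.814%, so that the NC libraries were spread more for this guide than for its partner of like abundance. For miR-221-5p it was 8.90% and 6.53% against 3.52%. The counts of miR-222-5p were so low that counting error alone gives 28.1%, and the observed values of 38.7% in RPL24 KD and 9.35% in NC lay on both sides of it. Pooled over all miRs but the rarest, NC libraries also differed more from each other than RPL24 KD libraries did. Chi-square per degree of freedom between library pairs was 9.72 to 17.4 in NC and 2.18 to 2.50 in RPL24 KD. Single miRs can raise this pooled value, and it does not give the spread of each miR. For example, miR-1246 was at 6364 CPM in NC 2 but at 196 CPM in NC 1 and 398 CPM in the unnumbered NC library. Its part in the value was not tested. The counting error figures and all intervals for shares cover counting error only. They take reads as independent molecules, which reads are not, and so may be too narrow.

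Ratios of arms within a library need no scaling between libraries, so 4 of them were compared between the groups by exact two-sided permutation tests of log2 ratios (0.5 added to each count), adjusted over the 4. Within the MIR221 hairpin, miR-221-5p took 4.45%, 4.85% and 5.05% of the reads of both arms in RPL24 KD libraries 1, 2 and unnumbered and 4.89%, 5.56% and 4.94% in NC libraries 1, 2 and unnumbered. RPL24 KD 1 was the lowest and NC 2 the highest, and the 95% Wilson intervals of these libraries, 4.15% to 4.77% and 5.17% to 5.97%, did not overlap. This compares single libraries picked as the extremes and is not a comparison of the groups, since the intervals cover counting error only. The guide thus outnumbered the passenger by 19.9-fold after RPL24 KD and 18.5-fold in NC. The log2 ratio was -4.32 ± 0.0972 after RPL24 KD and -4.21 ± 0.108 in NC, a difference of -0.11 (exact permutation p = 0.4, adjusted p = 0.667, n = 3 per group).

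The MIR222 hairpin was far more one-sided. MiR-222-5p took 0.0582%, 0.0995% and 0.0589% of the reads of both arms in RPL24 KD libraries 1, 2 and unnumbered and 0.1000%, 0.0847% and 0.0917% in NC libraries 1, 2 and unnumbered. The 95% Wilson intervals all overlapped, with that of RPL24 KD 1 reaching from 0.0306% to 0.111%. The guide outnumbered the passenger by 1362-fold after RPL24 KD and 1048-fold in NC, and the log2 ratio differed by -0.38, from -10.03 ± 0.109 in NC to -10.41 ± 0.413 after RPL24 KD (exact permutation p = 0.3, adjusted p = 0.667, n = 3 per group).

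The ratio between the hairpins was close to 1 for the guides. MiR-221-3p took 51.1%, 49.8% and 50.7% of the reads of both guides in RPL24 KD libraries 1, 2 and unnumbered and 50.6%, 48.2% and 54.2% in NC libraries 1, 2 and unnumbered. It was the more abundant guide in 4 of 6 libraries, so that neither guide can be ranked over the other. The Wilson intervals of the NC libraries, 50.1% to 51.1%, 47.6% to 48.9% and 53.6% to 54.8%, did not overlap each other, so the balance of the guides varied among NC libraries by more than counting error. By chi-square pooled over miRs, NC libraries also differed more from each other. Of the arms, however, only miR-222-3p had a larger coefficient of variation in NC. Whether this spread is particular to the cluster was not tested. The log2 ratio was 0.03 ± 0.0406 after RPL24 KD and 0.06 ± 0.173 in NC, a difference of -0.03 (exact permutation p = 0.9, adjusted p = 0.9, n = 3 per group). For the passengers the log2 ratio of miR-221-5p to miR-222-5p was 6.13 ± 0.435 after RPL24 KD and 5.88 ± 0.180 in NC (difference 0.24, exact permutation p = 0.5, adjusted p = 0.667, n = 3 per group). Hence the hairpins gave near-equal guides while their passengers stood 69.8-fold apart after RPL24 KD and 58.9-fold apart in NC.

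Among 74 hairpins with both arms tested, the less abundant arm took a median of 9.11% of the reads summed over the 6 libraries. MIR222 had the lowest share of all 74, 0.0838%, while MIR221 was number 29 from the lowest with 4.92%. The share of miR-20a, 0.0857%, was too close to rank below or above MIR222 on so few miR-222-5p reads. Hairpins whose rarer arm was too low to be tested are left out, so the 74 do not cover the rarest arms. The guide was the 3p arm in 37 of the 74 hairpins, as in MIR221 and MIR222. The 5p arm and the 3p arm of a hairpin differed in log2 fold change by a median of 0.14 in size over the 74 hairpins, and 5p minus 3p was -0.10 for miR-221 and -0.29 for miR-222.

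The cluster of miR-191 and miR-425, another pair of hairpins cut from an intron of a single host gene, served as a comparison. Its guides are 5p arms, and it resembled the cluster of miR-221 and miR-222 in having 1 hairpin with a very rare passenger and 1 with a more frequent one. None of its 4 arms was called and none had groups that did not overlap. MiR-191-5p, its more abundant guide, was at 8588 ± 194 CPM after RPL24 KD and 9275 ± 648 CPM in NC (SD, n = 3), and differed by -0.11 on the log2 scale (adjusted p = 0.331, edgeR). MiR-425-5p was at 966 ± 54.7 CPM and 1014 ± 35.5 CPM, and differed by -0.07 on the log2 scale (adjusted p = 0.664, edgeR). The guides of that cluster were thus several-fold apart in level, where miR-221-3p and miR-222-3p were near-equal. Its passengers had log2 fold changes of -0.12 for miR-191-3p (adjusted p = 0.875, edgeR) and -0.22 for miR-425-3p (adjusted p = 0.521, edgeR), and the median of the 4 arms was -0.12.

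The likeness of miRs to each guide was described by Pearson's r of log2 CPM over the 6 libraries, among the other 165 miRs that averaged 100 counts or more. These points share library and normalization, and no test was made. The miRs most like miR-221-3p were miR-942-5p (r = 0.915), miR-501-3p (0.858), miR-24-3p (0.772), miR-744-5p (0.748) and miR-296-3p (0.717). Those most like miR-222-3p were miR-151a-3p (r = 0.849), miR-148a-5p (0.830), miR-423-5p (0.790), miR-361-3p (0.773) and miR-152-3p (0.763). The lists share no miR. Of 165 miRs, miR-222-3p was number 98 in likeness to miR-221-3p (r = -0.15), and miR-221-5p was number 25 for miR-221-3p (r = 0.473) and number 29 for miR-222-3p (r = 0.465). The guides, though near-equal in level, did not follow each other from library to library.

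Other miRs that share a feature with the cluster were counted from lists, to be read against the 5.00% of all 360 miRs that were called and the 27.5% whose groups did not overlap. Of 9 miRs linked to CDKN1B or KIT, the known targets of the guides, 7 were tested and 0 were called, with 2 higher and 1 lower in all RPL24 KD libraries than in all NC libraries, and a median log2 fold change of -0.04. The most abundant were miR-148a-3p, at 127656 ± 4909 CPM after RPL24 KD and 131944 ± 13269.7 CPM in NC (SD, n = 3; log2 fold change -0.05, adjusted p = 0.711, edgeR), miR-148b-3p (-0.04, adjusted p = 0.711) and miR-24-3p (-0.15, adjusted p = 0.331). Of 24 miRs known to be raised in tumours, as the guides are, 23 were tested, 1 was called higher and 0 lower, and the groups did not overlap in 6 higher and 5 lower ones, with a median log2 fold change of 0.01. The one called was miR-19a-3p of the miR-17-92 cluster (log2 fold change 0.26, adjusted p = 0.0487, edgeR). Of 55 other miRs of the X chromosome, 10 had no read and 32 were tested, of which miR-424-3p was higher (log2 fold change 0.47, adjusted p = 0.0132, edgeR) and miR-504-5p lower (-0.47, adjusted p = 0.0357). Across the X chromosome list, 4 higher and 5 lower miRs had groups that did not overlap, and the median was -0.04. Of the HEK293T markers, miR-196b-5p of the HOXA cluster was called higher (log2 fold change 0.37, adjusted p = 0.00407, edgeR), 4 of the 7 were higher and 0 lower with groups that did not overlap, and the median of the 7 was 0.14. Of the markers of other cell types only miR-1-3p was tested (log2 fold change -0.40, adjusted p = 0.0557, edgeR).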

How the data were processed

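Small RNA libraries of HEK293T cells, 3 RPL24 KD and 3 NC, were grouped by their labels. The authors trimmed reads with Flexbar, checked them with FastQC, aligned them with miRExpress to miRBase and deposited raw read counts per mature miR, without normalization. No per-sample column was left out (0). The libraries held 398721 to 611745 counts. Counts were tested with edgeR 4.0.16 in R 4.3.3 (quasi-likelihood fit, non-legacy, TMM, filterByExpr with a minimum count of 10, no replicate block, Benjamini-Hochberg adjustment over all 360 miRs, called at an adjusted p under 0.05). Standard errors are those implied by the F statistic. Ratios and the summed CPM were tested by exact permutation with scipy 1.17.1. Hairpins were folded with ViennaRNA 2.7.2. Of the names in the count table, 2281 matched a RefSeq mature sequence. DESeq2 1.42.0 and other scalings, filters and library sets were alternatives. The fit was tested on simulated data.

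The members, gene lists and tests were chosen with earlier results of these data known. Named are the 4 arms, miRs that share a seed with them, the 5 miRs most like each guide, the arms of miR-191 and miR-425, and of each other list the miRs called or, where none was, the 3 most abundant. MiR-1-3p, miR-206 and miR-223-3p were named after their values were seen.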

Additional observations from a re-analysis of the deposited data

How the results depend on the processing

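Of the arms given an adjusted p, 0 were called under each alternative run (other scalings, filters, DESeq2, library sets and blocks), and the ratios of arms and the summed CPM kept their direction or moved by less than the replicate SD in all of theirs. The log2 fold change of miR-221-3p, -0.01, became positive with no filter (7.8e-05), DESeq2 with default filtering (0.0053), the replicate block (0.0015), the 4 numbered libraries without a block (0.0021) and the crossed replicate block (0.0019), and ranged from -0.020 to 0.018 with each library left out. That of miR-222-3p, 0.01, became negative with total counts (-0.035), a mean of at least 100 counts (-0.022), the replicate block (-0.0583), the numbered libraries without a block (-0.0563) and the crossed block (-0.0577), and ranged from -0.053 (without the unnumbered NC library) to 0.11. All these values were within the main 95% interval. MiR-221-5p lay between -0.17 and -0.03 in 18 settings, with a lowest unadjusted p of 0.0243 (adjusted p = 0.123, edgeR) under the replicate block. MiR-222-5p lay between -0.67 (without RPL24 KD 2) and -0.07 in 17 settings. It was not tested at a mean of at least 100 counts, and DESeq2 gave it no adjusted p with either filter. The count of 18 called miRs became 28 with total counts (10 higher and 18 lower, with the median of all miRs at -0.06), 31 with no filter, 34 with robust estimation, 52 under the replicate block, 34 for the numbered libraries without a block and 35 under the crossed block. It ranged from 4 to 29 with each library left out, with 7 (all higher) without RPL24 KD 1, 4 (all higher) without RPL24 KD 2 and 29 without the unnumbered NC library. At a mean of at least 100 counts it was 27 of 166, 10 higher and 17 lower. The cause was not tested. Under the block, the ratios differed by -0.17, -0.27, 0.06 and 0.16 and the summed CPM by -0.026 (log2). Same-numbered libraries had correlations of deviations of -0.14 and 0.12 over 360 miRs, and differently numbered ones 0.08 and -0.00057. Whether same-numbered libraries share a culture or batch cannot be told from so few weak correlations, and no label says so. The block leaves out the unnumbered libraries, whose number differs between table and labels. The numbered set without a block, the crossed block and the legacy edgeR fit were chosen after seeing the data. Depth limits miR-222-5p most, with 7 to 19 reads per library.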
